A study of Mus musculus with 2 samples.

Results

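5 genes of the 14366 in the expression tables, Nt5e, Csrp3, Tesc, Samd14 and Ccdc180, were chosen by their difference between 2 single-cell RNA libraries of mouse hematopoietic stem cells: each was among the 8 lowest under deferoxamine (DFO) of the 7476 genes with enough molecules to rank, and none is a classical platelet gene. DFO binds iron and lowers the iron available to cells. The hematopoietic stem cells (HSC) came from the bone marrow of wildtype C57/B6 mice aged 6 to 8 weeks, whose lineage-depleted marrow was pooled from 8 animals. They were sorted as Lin−Sca-1+c-Kit+CD150+CD48− and cultured for 48 h in cytokine-supplemented Myelocult M5300 with 100 ng/ml stem cell factor (SCF) and Primocin. The vehicle group received sterile water and the DFO group 10 µM DFO, with the same pool, cytokines and medium in both. Each group is 1 library of 1 pooled culture, so differences could not be checked against replicates, p-values are not given, and intervals cover counting error only.

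As background, the 5 genes have unlike known roles. Nt5e encodes CD73, an enzyme on the cell surface that turns extracellular AMP into adenosine. Tesc encodes tescalcin, a calcium-binding protein that has been tied to megakaryocyte differentiation. Samd14 encodes a sterile alpha motif protein, is regulated by GATA2 in blood progenitors, and promotes signalling from the SCF receptor KIT. Csrp3 encodes muscle LIM protein, best known from heart and skeletal muscle, where it links the sarcomere's Z-disc to the actin cytoskeleton. Ccdc180 encodes a coiled-coil protein. Megakaryocytes are the cells that shed platelets, and cultured HSC can move towards this lineage.

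In the GENCODE M21 annotation of GRCm38, Nt5e lies at chr9:88327197-88372092 on the plus strand, Csrp3 at chr7:48830398-48848033 on the minus strand and Tesc at chr5:118027743-118061878 on the plus strand. Samd14 lies at chr11:95009879-95026087 and Ccdc180 at chr4:45890303-45950774, both on the plus strand. All are protein coding, and none overlaps another annotated gene. The longest coding transcript of Nt5e has 9 exons, that of Csrp3 6, that of Tesc 8, that of Samd14 10 and that of Ccdc180 38. The RefSeq promoter table (GRCm38.p6) matched 4 of the 5 genes and not Samd14. For Nt5e, the 250 bases before the RefSeq start lie within an exon of the GENCODE model and are not printed. The 250 bases before the other starts are shown because these genes differed together between the libraries. Capitals mark matches on either strand to motifs of 4 factor families that act in blood cells or under hypoxia: GATA (the letters AGATAA, the letters AGATAG, the letters TGATAA or the letters TGATAG), ETS (the letters CCGGAA or the letters CAGGAA), RUNX (the letters TGTGGT or the letters TGCGGT) and the hypoxia response element (the letters ACGTG).
Csrp3, first start, chr7:48848052-48848301, minus strand: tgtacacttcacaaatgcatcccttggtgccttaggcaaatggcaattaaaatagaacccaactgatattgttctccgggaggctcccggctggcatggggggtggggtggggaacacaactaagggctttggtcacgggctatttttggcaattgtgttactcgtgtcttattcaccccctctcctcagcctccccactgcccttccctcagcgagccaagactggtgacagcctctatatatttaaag
Csrp3, second start, chr7:48843672-48843921, minus strand: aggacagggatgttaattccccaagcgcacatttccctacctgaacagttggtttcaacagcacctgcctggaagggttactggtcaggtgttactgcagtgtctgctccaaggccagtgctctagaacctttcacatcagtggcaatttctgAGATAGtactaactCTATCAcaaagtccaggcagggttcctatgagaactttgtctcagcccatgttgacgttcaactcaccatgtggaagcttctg
Tesc, chr5:118027493-118027742, plus strand: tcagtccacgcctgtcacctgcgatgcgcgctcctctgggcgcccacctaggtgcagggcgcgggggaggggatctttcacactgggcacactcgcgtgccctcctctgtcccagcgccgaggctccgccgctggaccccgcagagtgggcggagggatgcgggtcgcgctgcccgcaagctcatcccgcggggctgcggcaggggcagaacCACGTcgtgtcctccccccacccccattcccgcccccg
Ccdc180, chr4:45890053-45890302, plus strand: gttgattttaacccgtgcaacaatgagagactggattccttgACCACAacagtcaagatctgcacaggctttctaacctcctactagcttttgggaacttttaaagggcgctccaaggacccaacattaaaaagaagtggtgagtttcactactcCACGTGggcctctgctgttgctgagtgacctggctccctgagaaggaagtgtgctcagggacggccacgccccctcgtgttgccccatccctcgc
Tesc holds 1 ACGTG, on the other strand at -38 from the start, and Ccdc180 holds overlapping matches on both strands at -95 and -94 in CACGTG, plus 1 RUNX match at -208. Only the second Csrp3 start holds GATA matches, 2 in all, at -97 and -83. Neither the window of Nt5e nor the first start of Csrp3 holds any of the 4 motifs, and no window holds an ETS match. Among 32851 RefSeq promoter windows of the same length, 26.5% hold a GATA match, 35.1% an ETS match, 18.6% a RUNX match and 16.6% an ACGTG. The GC content of the windows was 72.0% for Nt5e, 73.2% for Tesc, 52.4% for Ccdc180, and 51.2% and 48.4% for the first and second start of Csrp3. A match is a description of the letters and does not show that a factor binds.

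The vehicle library holds 8708 cells and 260938938 molecules with a median of 27805.5 per cell, and the DFO library 9852 cells and 284326017 molecules with a median of 27114. The 2 libraries share 24 cell barcodes. Median mitochondrial shares were 3.88% and 4.40%. A doublet caller marked 3 and 2 cells, too few for libraries of this size, so doublets were not removed; leaving out the 762 vehicle and 817 DFO cells with the highest doublet scores moved none of the 5 differences outside its counting interval.

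All 5 genes were lower in the DFO library than in the vehicle library, and the summed levels of Nt5e, Csrp3, Ccdc180 and Tesc differed by over 2-fold. Levels are in molecules per 1e6 molecules of the library (CPM), and differences are log2((DFO CPM + 1)/(vehicle CPM + 1)), a scale that understates the change of low genes. Nt5e gave 2714 molecules or 10.4 CPM (95% Poisson interval 10.0 to 10.8) in the vehicle library and 1160 molecules or 4.08 CPM (3.85 to 4.32) in the DFO library, a difference of -1.17 (-1.25 to -1.08). Csrp3 was at almost the same levels, with 10.1 CPM (9.70 to 10.5) against 4.07 CPM (3.83 to 4.31), a difference of -1.13 (-1.21 to -1.05). Ccdc180 stood at 12.9 CPM (12.4 to 13.3) against 5.57 CPM (5.30 to 5.86), a difference of -1.08 (-1.15 to -1). Those 3 genes make up one end of the set. Tesc was at 19.5 CPM with vehicle and 9.42 CPM (9.07 to 9.78) with DFO, a difference of -0.97 (-1.04 to -0.91). Samd14 was at 16.3 CPM (15.8 to 16.8) with vehicle and 8.28 CPM (7.94 to 8.62) with DFO, a difference of -0.90 (-0.97 to -0.83). The intervals of the 2 libraries do not overlap for any of the 5, but they cover counting error only. The share of all genes with intervals apart was not counted, so nothing is read from this.

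Since this contrast chose the genes, these values describe them and support nothing. Among 7476 genes at 10 CPM or more in either library, 6 were lower by a log2 difference of 1 or more (0.0803%), 3 of them in the set (Nt5e, Csrp3 and Ccdc180). Further, 43 were lower by 0.5 or more (0.575%), all 5 among them. Above the set in this order stood Treml1 (-1.47) and Pf4 (-1.29), both made in megakaryocytes and platelets, and between its members stood 2610528A11Rik (-1.09). Genes under 10 CPM in both libraries are not in this order, such as Clec1b (-1.26, from 3.85 to 1.02 CPM), Ppbp (-1.16) and Serpinb2 (-1.01). Just outside the set in the order stood Timp3 (-0.88), Alox5 (-0.85), Gp9 (-0.84) and Mt2 (-0.82), so no gap separates Samd14 from the genes after it.

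The 5 transcripts were seen in a minority of cells, and in fewer of them with DFO. With every cell thinned to 10000 molecules, Samd14 was seen in 10.4% of vehicle cells (95% Clopper-Pearson interval 9.73 to 11) and 5.68% of DFO cells (5.22 to 6.17). Tesc was seen in 9.25% (8.64 to 9.89) and 5.02% (4.59 to 5.48), and Ccdc180 in 8.56% and 4.55%. Nt5e was seen in 6.93% (6.39 to 7.49) and 3.10% (2.76 to 3.47), and Csrp3 in 5.85% (5.36 to 6.38) and 2.51% (2.20 to 2.84). Thinning left out 351 vehicle cells (4.03%) and 433 DFO cells (4.40%) with fewer molecules. Unthinned, the shares were 20.4% and 12.7% for Samd14, 17.5% and 9.88% for Tesc, 17.8% and 10.5% for Ccdc180, 15.7% and 7.96% for Nt5e, and 11.3% and 5.93% for Csrp3.

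Free RNA in droplets sets a floor for such shares. Neutrophil-monocyte-like cells, a small cluster found when genes that differ between the libraries were left out of the clustering, number 79 in the vehicle and 83 in the DFO library after thinning, at median depths of 31461 and 28891 molecules. There the 5 genes were seen in 0% to 2.53% of vehicle cells and 0% to 1.20% of DFO cells. A count of 0 among those 79 cells gives an upper bound of 4.56% (Nt5e, vehicle), and the highest upper bound was 8.85% (Samd14, vehicle). That of Csrp3 with vehicle, 6.85%, lies above its share of 5.85% over all cells, so the floor is only loosely bounded. Levels of about 1 CPM in other clusters are not read as expression below.

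Strong expression was rarer still. Cells with 5 or more Tesc molecules numbered 302 in the vehicle library (3.47%) and 130 in the DFO library (1.32%), and a single cell held up to 49 and 50 molecules. For Nt5e such cells numbered 93 and 15, for Csrp3 148 and 45, for Samd14 206 and 71, and for Ccdc180 144 and 26. Relative to vehicle, the number of such cells left with DFO was smallest for Nt5e and Ccdc180, while the highest single Tesc cell was as high with DFO as without.

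The cells were clustered without the 5 genes, which gave 8 clusters. Cluster 2 was megakaryocyte-like: its leading genes were Serpinb2, Cavin2, Tesc, Serpine2, Pf4, Timp3, Samd14, Treml1, Il1b and Clec1b, of which Cavin2, Serpine2, Pf4, Treml1 and Clec1b are on the marker list used for naming. Tesc and Samd14 therefore stand among the 10 genes that mark these cells, although they took no part in the clustering. Cluster 0 was HSC-like, led by Sult1a1 with Ly6a and Procr, 2 surface markers of mouse HSC, and the other 6 clusters were left unnamed.

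All 5 genes had their highest level in the megakaryocyte-like cluster in both libraries. Tesc was at 69.6 CPM there with vehicle (67.6 to 71.7) and 52.1 CPM with DFO (50.0 to 54.4), against 3.46 and 2.01 CPM over all other cells. Samd14 was at 52.9 CPM (51.1 to 54.7) and 39.8 CPM (37.9 to 41.8), against 4.63 and 2.80 CPM elsewhere. Ccdc180 was at 41.9 CPM (40.3 to 43.5) and 24.7 CPM (23.2 to 26.3), against 3.63 and 2.25 CPM. The other 2 genes showed the same layout. Nt5e was at 34.5 CPM (33.0 to 36.0) and 18.3 CPM (17.0 to 19.7), against 2.72 and 1.61 CPM. Csrp3 was at 32.7 CPM (31.4 to 34.2) and 20.3 CPM (19 to 21.7), against 2.85 and 1.25 CPM. The fold of this cluster over all other cells ran from 11 (Ccdc180, DFO) to 25.9 (Tesc, DFO). The cluster held 86.5% of all Tesc molecules of the vehicle library and 81.8% of those of the DFO library, the highest shares of the 5. The lowest were 78.5% (Samd14) with vehicle and 65.6% (Ccdc180) with DFO.

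**Figure D1:**
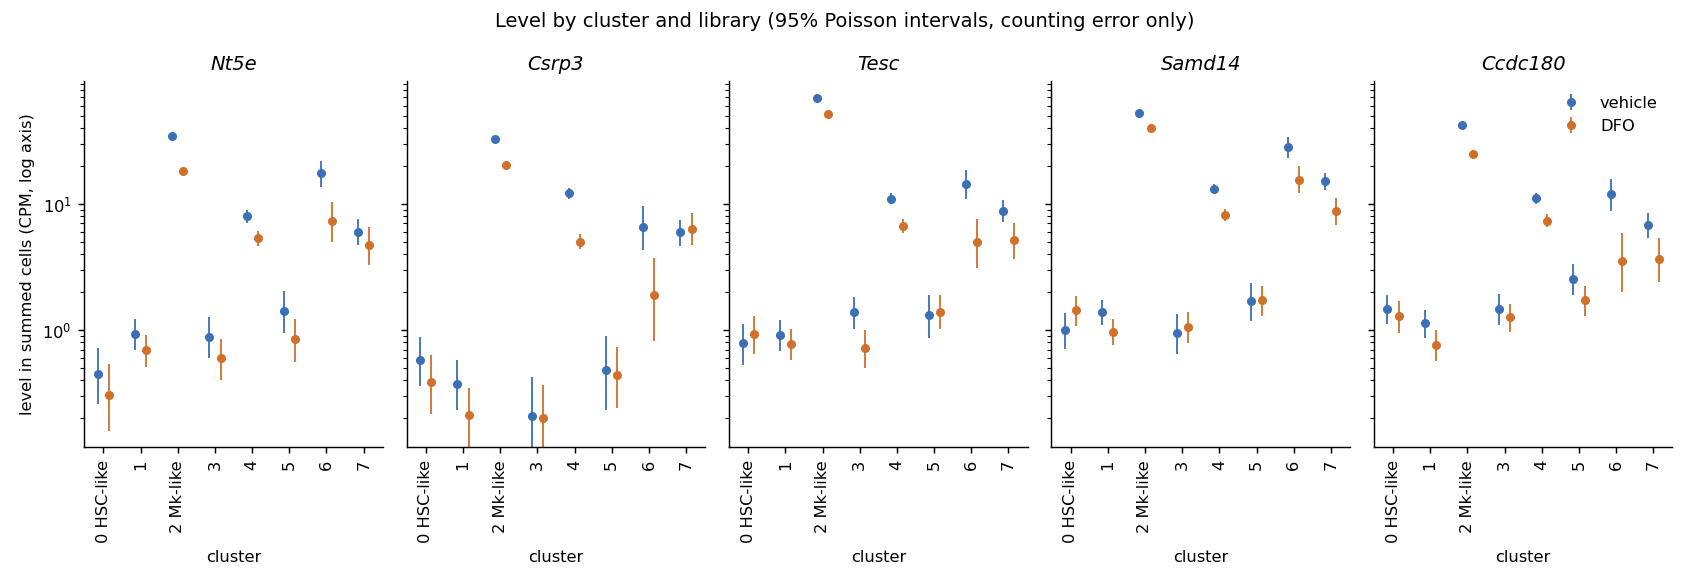
Level of each gene (CPM of summed molecules, log axis) in the 8 clusters, for the vehicle library (blue) and the DFO library (orange), with 95% Poisson intervals. All 5 genes peak in the megakaryocyte-like cluster 2, where vehicle levels run from 32.7 to 69.6 CPM and the DFO points lie below the vehicle points.

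Within the megakaryocyte-like cluster the 5 genes separated by the size of the difference. The difference was -0.88 for Nt5e (-0.99 to -0.76), -0.74 for Ccdc180 (-0.84 to -0.64) and -0.66 for Csrp3 (-0.77 to -0.55), but -0.41 for Tesc (-0.48 to -0.34) and -0.40 for Samd14 (-0.48 to -0.32). The counting intervals of the first 3 do not overlap those of the last 2. With other clusterings the class was wider and Tesc came to -0.65 (resolution 0.25) and -0.74 (without genes that differ between the libraries), and Samd14 to -0.62 and -0.69. All 5 were lower there by 0.25 or more, a size that 2.89% of 7327 genes at 10 CPM or more in that cluster reached; this contrast holds most of the molecules that chose the genes, so nothing is read from the share. In thinned cells of the cluster, Nt5e was seen in 26.6% with vehicle (24.5 to 28.9) and 14.7% with DFO (12.7 to 16.9), and Tesc in 36.7% and 27.3%.

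The megakaryocyte-like cluster took up 18.4% of cells with vehicle and 11.9% with DFO, but genes that mark it differ between the libraries, so these sizes are not compared. In a clustering without any gene that differed by 0.25 or more, megakaryocyte-like clusters were wider and held 33.0% of vehicle and 26.7% of DFO cells. When the 8 clusters of the first clustering were weighted to equal shares in both libraries, the differences over all cells came to -0.77 for Nt5e, -0.70 for Csrp3, -0.69 for Ccdc180, -0.49 for Tesc and -0.46 for Samd14. Only 3 of the 5 then reached -0.5.

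Outside the megakaryocyte-like cluster, levels above about 2 CPM in both libraries were found in clusters 4, 6 and 7, with 1 exception, Csrp3 in cluster 6 with DFO. Cluster 4, led by Slc7a8, Lpl and Fgf3 with Gata1 and Klf1 among its top 10, held 1223 vehicle and 1300 DFO cells. Csrp3 was at 12.2 CPM there with vehicle (11 to 13.4) and 5.03 CPM with DFO (4.35 to 5.79), a difference of -1.13 (-1.34 to -0.91). That is the lowest difference of the 5 in this cluster, where Nt5e gave -0.50, Ccdc180 -0.53, Samd14 -0.63 and Tesc -0.65. In cluster 7, led by Trnp1, Gna14 and Il1rl1, Csrp3 was at 5.94 CPM (4.63 to 7.52) and 6.36 CPM (4.68 to 8.46), a difference of 0.08 whose interval (-0.38 to 0.54) spans 0. The other 4 genes were lower with DFO in cluster 7, by -0.29 for Nt5e, whose interval spans 0, to -0.75 for Ccdc180.

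Cluster 6 is set apart by depth, with medians of 6966 molecules and 2518 genes per cell. Its median mitochondrial share was 6.85%, against 3.42% to 4.51% in the other clusters. Only 141 vehicle and 124 DFO cells of it reached the depth for thinning, so its levels rest on shallow cells. Samd14 was at 28.2 CPM there with vehicle and 15.6 CPM with DFO, and Nt5e at 17.5 and 7.33 CPM. Csrp3 was at 6.56 CPM from 27 molecules and 1.89 CPM from 8. Leaving out cells with fewer than 3000 genes moved none of the 5 differences over all cells by more than 0.01. At the other end, the HSC-like cluster held 0.446 CPM of Nt5e with vehicle and 0.307 CPM with DFO, 0.578 and 0.384 CPM of Csrp3, 0.788 and 0.922 CPM of Tesc, 0.998 and 1.43 CPM of Samd14, and 1.47 and 1.28 CPM of Ccdc180. In clusters 1, 3 and 5 vehicle levels were between 0.206 CPM (Csrp3, cluster 3) and 2.52 CPM (Ccdc180, cluster 5). Neighbours in this order have overlapping intervals, whereas clusters 2 and 4 stand apart from clusters 0, 1, 3 and 5 for every one of the 5 genes in both libraries.

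Among phase calls, Csrp3 had its lowest difference in G1-called cells. In cells called as G1 from cell cycle genes (800 vehicle and 574 DFO cells), Csrp3 was at 15 CPM with vehicle (202 molecules) and 2.91 CPM with DFO (27 molecules), a difference of -2.03 (-2.47 to -1.58). The other 4 genes differed in those cells by -0.46 (Nt5e, -0.98 to 0.06) to -1.23 (Samd14, -1.69 to -0.77), and the intervals of Samd14 and Tesc (-1.66 to -0.64) overlap that of Csrp3. Of the 202 vehicle molecules, 147 lay in 177 G1-called cells of cluster 4, where Csrp3 reached 53.9 CPM, and 42 in 28 G1-called cells of the megakaryocyte-like cluster. With DFO, cluster 4 held 61 G1-called cells with 19 Csrp3 molecules (21.2 CPM). In the same cells Tesc was at 18.7 CPM with vehicle and 7.81 CPM with DFO, and Samd14 at 26.4 and 12.3 CPM. Nt5e was at 10.3 and 11.2 CPM there, from 28 and 10 molecules. In the S-called and G2/M-called cells of cluster 4, Csrp3 was at 10.4 and 5.85 CPM with vehicle and 6.09 and 3.15 CPM with DFO. G1-called cells made up 14.5% of cluster 4 with vehicle and 4.69% with DFO, and the part of this in the Csrp3 difference was not tested. Of the 148 vehicle cells with 5 or more Csrp3 molecules, 124 were in the megakaryocyte-like cluster and 22 in cluster 4; for Tesc the numbers were 293 and 8 of 302. Phase calls rest on thin counts per cell and do not by themselves show that cells had left the cycle.

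Across phases, all 5 genes were lower with DFO. In G2/M-called cells the differences ran from -0.96 (Samd14) to -1.27 (Nt5e), and in S-called cells from -0.77 (Samd14) to -1.17 (Csrp3). Cells of female and male mice, told apart by Xist and 4 Y-linked genes, gave differences of -1.22 and -1.18 for Nt5e, -1.14 and -1.24 for Csrp3, -1 and -0.96 for Tesc, -0.98 and -0.83 for Samd14, and -1.13 and -1.03 for Ccdc180. The pool thus holds at least 1 animal of each sex, and the direction held in both.

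Cells were also ordered by their summed level of megakaryocyte markers, which does not include the 5 genes, and cut into deciles over both libraries together. From the sixth decile on, the level of each gene was higher in each decile than in the one before, in both libraries. Nt5e with vehicle went from 0.790 CPM in the fifth decile to 16.0 CPM in the ninth and 37.9 CPM in the top decile. Tesc with vehicle went from 1.21 CPM in the fifth decile to 19.6 CPM in the ninth and 83.9 CPM in the top decile. The top decile held 1308 vehicle and 548 DFO cells with median marker sums of 6209 and 5486 CPM.

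Within deciles of the marker sum the 5 genes behaved unequally. Marker levels were not equal in the top decile, with medians of 6209 CPM with vehicle and 5486 CPM with DFO. The markers that set the order were themselves mostly lower with DFO. The median log2 difference of the 14 markers at a mean of 5 CPM or more was -0.56. The same decile therefore need not hold equivalent cells in both libraries, with or without Pf4 in the sum. In the top decile Nt5e was at 37.9 CPM (36.2 to 39.6) and 22.5 CPM (20.5 to 24.7), a difference of -0.72 (-0.87 to -0.58). Ccdc180 was at 44.7 CPM (42.8 to 46.6) and 30.7 CPM (28.3 to 33.3), a difference of -0.53 (-0.65 to -0.40). Csrp3 was at 35.4 and 27.8 CPM, a difference of -0.34 (-0.48 to -0.20). Samd14 was at 59.7 and 51.7 CPM, a difference of -0.21 (-0.31 to -0.10). Nt5e, Ccdc180, Csrp3 and Samd14 were thus lower with DFO in this decile, by unlike amounts. The decile holds most vehicle molecules of each of the 5 genes, such as 1833 of 2714 for Nt5e and 4059 of 5079 for Tesc. This contrast therefore overlaps with the one that chose the genes, and nothing is read from its direction. Tesc was at 83.9 CPM (81.3 to 86.5) and 90.0 CPM (85.8 to 94.4), 0.10 higher with DFO (0.02 to 0.18). Pf4 makes up 1447 of the 2319 CPM of the markers in the vehicle library and itself differed between the libraries; with the sum taken without it, an alternative added after the data had been seen, Tesc gave -0.01, Csrp3 -0.52, Samd14 -0.29, Ccdc180 -0.62 and Nt5e -0.72. In the ninth decile Tesc (19.6 and 21.5 CPM) and Samd14 (26.3 and 28.0 CPM) differed by intervals that span 0, while Csrp3 was at 20.2 and 12.7 CPM, a difference of -0.63 (-0.82 to -0.44). Without Pf4 in the sum, the ninth decile turned to lower values with DFO for both: Tesc was at 25.9 and 18.2 CPM (-0.48, interval -0.64 to -0.32) and Samd14 at 28.9 and 24.5 CPM (-0.23, interval -0.38 to -0.09). In the eighth decile of that order Tesc gave -0.48 and Nt5e -0.39, against 0.06 and -0.04 with Pf4 in the sum.

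**Figure D2:**
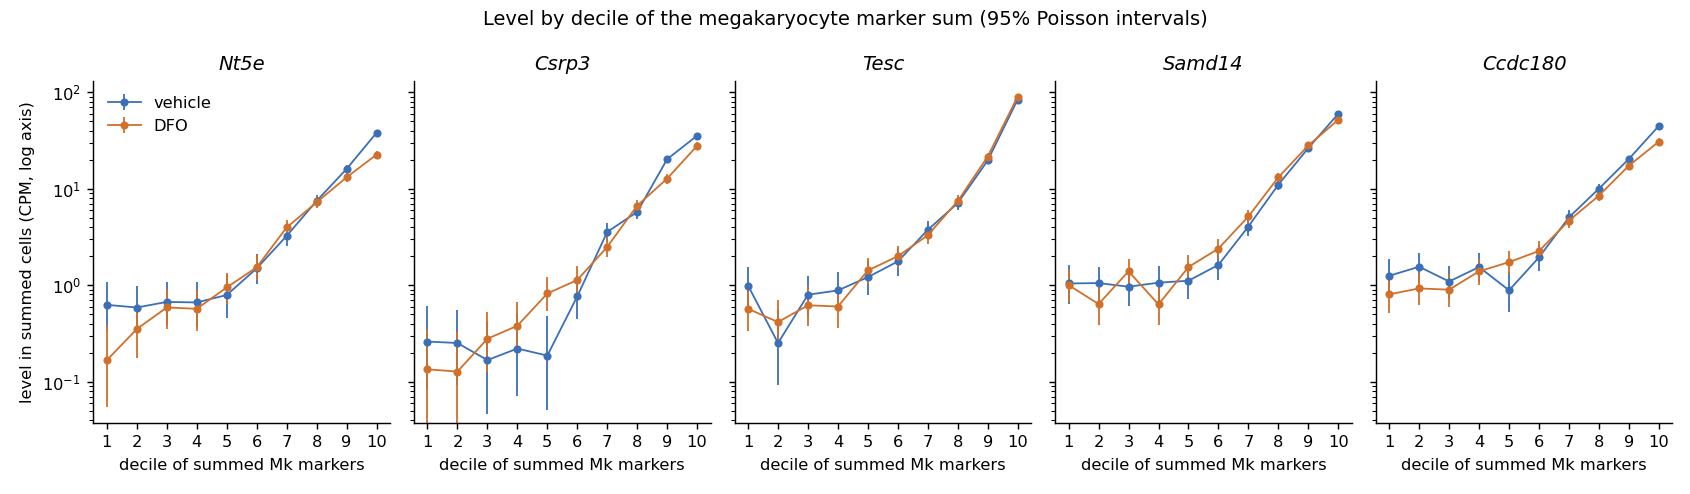
Level of each gene (CPM, log axis, 95% Poisson intervals) by decile of the summed megakaryocyte marker level, vehicle in blue and DFO in orange. In the top decile Tesc is at 83.9 and 90.0 CPM and Nt5e at 37.9 and 22.5 CPM. With a marker sum without Pf4 (not drawn), Tesc and Nt5e are lower with DFO in the eighth and ninth deciles. In the top decile of that order the difference of Tesc is -0.01.

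Cells with 1 of the 5 genes held another more often than all cells did, but most cells with any of them held only 1. In thinned cells, 1 or more of them was seen in 24.4% of vehicle and 14.9% of DFO cells, and exactly 1 in 13.3% and 10.3%. Cells with 3 or more numbered 359 with vehicle (4.30%) and 120 with DFO (1.27%). Of the cells with 3 or more, 90.8% with vehicle and 92.5% with DFO were in the megakaryocyte-like cluster, against 5.22% and 5.08% of the cells with none. All 5 were seen together in 8 vehicle cells and 2 DFO cells. The median marker sum was higher the more of the genes were seen, from 640.1 CPM in vehicle cells with none to 2445 CPM with 1 and 6623 CPM with 3 or more.

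**Figure D3:**
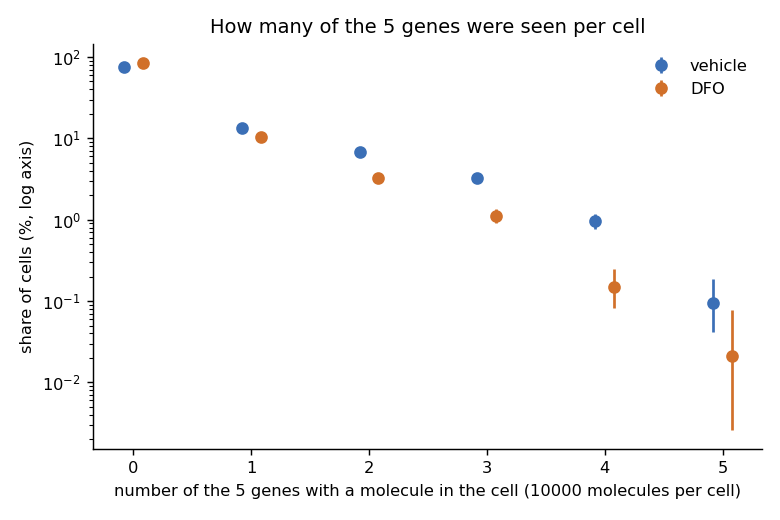
Share of thinned cells (percent, log axis, 95% Clopper-Pearson intervals) by the number of the 5 genes with a molecule in the cell, vehicle in blue and DFO in orange. Cells with none make up 75.6% of the vehicle and 85.1% of the DFO library, and from 1 gene on the DFO points lie below the vehicle points, with overlapping intervals at 5.

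Among vehicle cells with Tesc, 37.9% also held Samd14, and 33.8% of the cells with Samd14 held Tesc, against 10.4% and 9.25% of all cells. Nt5e and Csrp3 shared 123 vehicle cells, 21.2% of the Nt5e cells and 25.2% of the Csrp3 cells, against 5.85% and 6.93% of all cells. Within the megakaryocyte-like cluster the gap was smaller: 25.5% of the vehicle Nt5e cells held Csrp3, against 20.9% of all cells of the cluster, and 43.9% of the Tesc cells held Samd14, against 37.8%. With DFO, 11.2% of the 170 Nt5e cells of that cluster held Csrp3, against 12.9% of all its cells. This was the only pair below the rate of the cluster, a gap of few cells that was not tested. Every other pair with DFO lay above that rate. For example, 30.6% of the Nt5e cells held Samd14, against 29.0%, and 39.4% held Tesc, against 27.3%. Pearson's r between any 2 of the 5, over 8357 thinned vehicle cells, ran from 0.16 (Nt5e and Csrp3) to 0.29 (Tesc and Samd14). Over 9419 DFO cells it ran from 0.08 to 0.24 for the same pairs. These are low values in sparse counts, over cells that share a library and its depth.

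Genes with the most similar pattern were ranked by the lower of the 2 libraries' r, among genes at a mean of 5 CPM or more. All 5 lists of the 8 most similar genes held Pf4, Rap1b, Tmsb4x and Mt1, in varying order. Pf4 encodes platelet factor 4, a chemokine stored in platelet granules, and gave r of 0.44 (vehicle) and 0.39 (DFO) with Tesc, 0.40 and 0.32 with Samd14, 0.35 and 0.24 with Ccdc180, 0.32 and 0.21 with Nt5e, and 0.29 and 0.21 with Csrp3. Tesc was alone in having Serpinb2 among its 8 most similar genes (0.38 and 0.33), Samd14 in having Cavin2 (0.26 and 0.24), and Nt5e in having Alox5 (0.22 and 0.17), which encodes a lipoxygenase of leukotriene synthesis. The integrin gene Itga2b, whose product is the platelet fibrinogen receptor's alpha chain, was among the 8 for every gene but Nt5e. Rabgap1l was among the 8 for Csrp3 (0.26 and 0.16) and Ccdc180 (0.29 and 0.20).

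Taking the 20 most similar genes of each, 33 distinct genes were found, and 11 were on all 5 lists, among them Gp5, Itga2b, Mt1, Pf4, Plek, Prkar2b, Rabgap1l, Rap1b, Serpine2 and Tmsb4x. Beyond the 8 per gene, these names were printed after their values had been seen. Between 17 and 19 of each list's 20 genes were lower with DFO by 0.25 or more and none was higher. Among all 8886 genes ranked, 2.58% were lower and 1.40% higher. Each list holds 1 or 2 of the 5 genes, which were chosen for being lower, and was drawn from the same cells as the difference. The share of the megakaryocyte-like cluster, 18.4% with vehicle and 11.9% with DFO, also enters all-cell differences of genes enriched there. How much of these counts this fixes was not tested. At the other end, H2afy, which encodes the histone variant macroH2A, was least similar to all 5, at r between -0.37 (Samd14, vehicle) and -0.20 (Nt5e and Csrp3, DFO). It was followed by S100a4, Vim, Lcp1, Cmtm7 or Stmn1, depending on the gene.

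**Figure D4:**
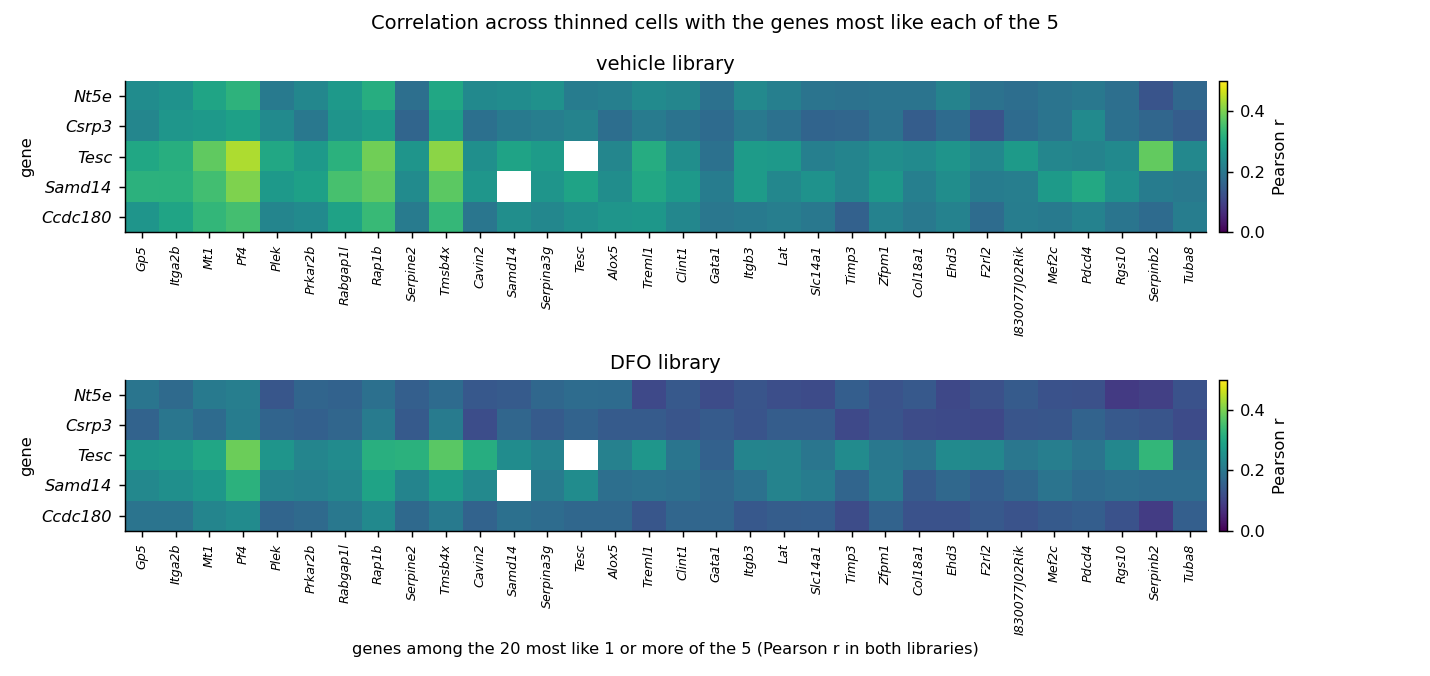
Pearson r (colour, 0 to 0.5) across thinned cells between each of the 5 genes (rows) and genes among the 20 most similar to 1 or more of them (columns, 1 gene not shown), in the vehicle library above and the DFO library below; white marks a gene against itself. Pf4 has the highest r of Tesc in both libraries (0.44 and 0.39), and the values of Pf4 with Nt5e are 0.32 and 0.21.

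The 5 genes were set beside all genes with the same cell distribution. In the vehicle library, 33 genes at 10 CPM or more had a level at least 4-fold higher in the megakaryocyte-like cluster than in all other cells, all 5 among them. Of these 33, 28 were lower with DFO by 0.5 or more (84.8%) and none was higher, with a median of -0.72; the median of the other genes at 10 CPM or more was 0.02. The selection fixes part of this count, since the 5 genes were chosen for this contrast and genes could reach 10 CPM through the vehicle library alone. The 4-fold enrichment was likewise measured in the vehicle library alone. The share of this cluster, 18.4% with vehicle and 11.9% with DFO, also enters any all-cell difference of genes enriched there. Genes that mark the cluster took part in setting that share. How much of the count this fixes, with or without the 5 genes, was not tested. Without the 5, 23 of 28 were lower by 0.5 or more, with a median of -0.65, and of the 22 of these at a mean of 10 CPM or more over both libraries 18 were, with a median of -0.65; none was higher. The least different of the 33 were Egr1 (-0.17), Podxl (-0.29) and Serpine2 (-0.41), named after their values had been seen. Tesc and Serpine2 have similar enrichment in the cluster, at log2 folds of 3.99 and 3.72, but differ in the contrast, at -0.97 and -0.41. Within the cluster the median of the 33 was -0.35, and Nt5e (-0.88), Ccdc180 (-0.74) and Csrp3 (-0.66) stood with Treml1 (-1.06) and Pf4 (-0.73) at the low end, while Tesc (-0.41) and Samd14 (-0.40) lay near the median. The choice of the 5 genes partly fixes this order too, and no test of it was possible with 1 library per group.

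**Figure D5:**
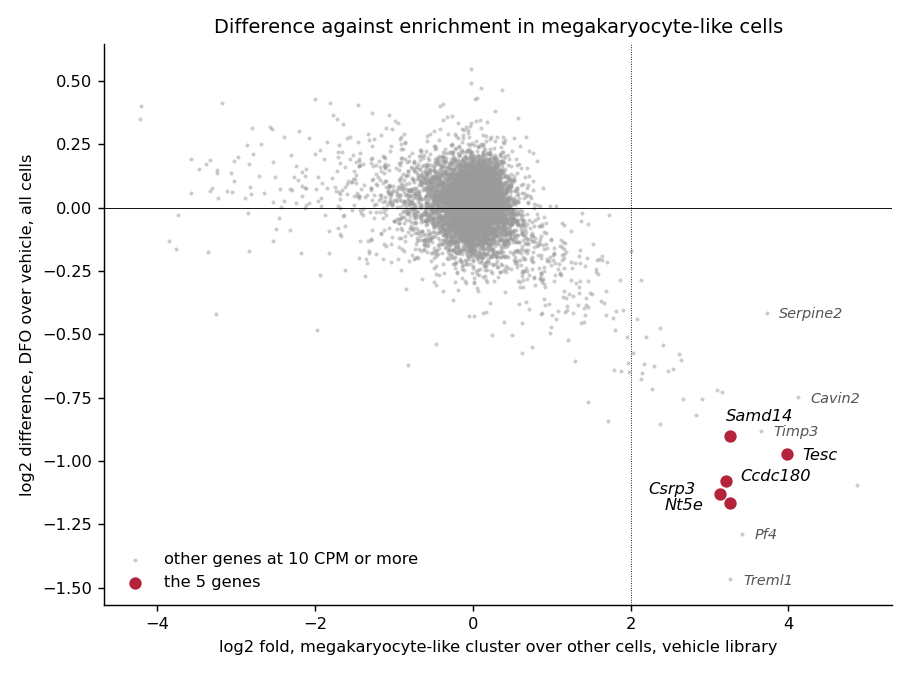
For each gene at 10 CPM or more, the log2 difference between libraries over all cells (vertical) against its log2 fold in the megakaryocyte-like cluster over other cells of the vehicle library (horizontal); the dotted line marks a 4-fold level. The 5 genes (red) lie between 3.13 and 3.99 on the horizontal axis and between -1.17 and -0.90 on the vertical axis, with Serpine2 above them at -0.41.

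Most genes of the pathway lists set beside the 5 did not share the difference. Counts below are of genes at a mean of 5 CPM or more, to be read beside the 2.58% lower and 1.40% higher over all such genes. The share lower was above 2.58% on the lists of extracellular nucleotides, LIM proteins and GATA2 signalling, while no gene was counted on the Tesc and cilium lists. The share higher was above 1.40% on the nucleotide and GATA2 lists, with 1 gene each. Of 14 genes of adenosine and extracellular nucleotides at that level, 3 were lower and 1 higher, with a median of -0.07. P2ry1, an ADP receptor of platelets, went from 8.66 to 5.80 CPM (-0.51) and Slc28a2, a nucleoside carrier, from 18.5 to 12.8 CPM (-0.50). On the higher side, Slc29a1, an equilibrative nucleoside transporter, went from 32.4 to 41.5 CPM (0.35) and Entpd5 from 21.6 to 25.8 CPM (0.24). Ada, which degrades the adenosine that CD73 makes, differed little, at 23.2 and 25 CPM (0.10). Entpd1 (CD39), which makes the substrate of CD73, was at 2.25 and 2.16 CPM. That is under the minimum of 5 CPM, so little can be read from it.

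Of 20 genes of LIM proteins and actin anchoring, 4 were lower and none higher, with a median of -0.09. The closest relatives of Csrp3 parted: Csrp1 went from 109 to 83.4 CPM (-0.38), and Csrp2 from 64.9 to 70.2 CPM (0.11). Vcl, which encodes the adhesion protein vinculin, went from 37.0 to 29.0 CPM (-0.34), whereas Actn1 and Tes were 0.16 higher each. None of the 15 genes of the Tesc list passed 0.25 in either direction, with a median of -0.01. There, Fli1, an ETS factor of megakaryocytes, gave -0.22, and Chp1, the nearest relative of Tesc on the list, -0.10. The highest of that list was Slc9a8 (0.14), with Slc9a3r1 and Ppp3ca at 0.12 each.

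Of 27 genes of GATA2 and SCF-KIT signalling, 4 were lower and 1 higher, with a median of -0.03. Gata1, the GATA factor of erythroid and megakaryocytic cells, went from 24.0 to 14.9 CPM (-0.65), and its cofactor Zfpm1 from 129 to 93.7 CPM (-0.45). Gata2 differed less, at 142 and 132 CPM (-0.10), as did Lmo2 (-0.04). Kit was 0.20 higher, at 35.3 and 40.7 CPM, and Ldb1 0.26 higher, at 22.9 and 27.6 CPM. None of 12 genes of the axoneme and cilium passed 0.25, with a median of -0.04; their highest were Ccdc40 (0.19) and Ift88 (0.17), and Cfap36, Ift140 and Arl13b were lowest at -0.11 each. Each gene counted as lower on these lists had a higher level in the megakaryocyte-like cluster than in other cells of the vehicle library, at log2 folds from 0.25 (Slc28a2) to 2.14 (Gata1). The genes counted as higher, Slc29a1 and Ldb1, had folds of -1.73 and -0.14, and Kit, not counted, -1.71. Not every gene enriched there was counted as lower. Pdlim5, Fli1 and Sos1, at folds of 1.64, 1.29 and 1.14, differed by -0.21, -0.22 and -0.13.

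Markers of other cell types were counted because Csrp3 is best known from muscle and Ccdc180 was set beside genes of the cilium. Of 14 striated muscle markers, 4 were in the tables, all under 1 CPM in both libraries, with a summed level of 1.11 CPM (vehicle) and 0.925 CPM (DFO). Ciliated cell markers summed to 14.1 and 15.3 CPM (5 of 11 in the tables, 2 of them under 1 CPM in both). Stromal or endothelial markers summed to 25.3 and 24.6 CPM. Of 14 megakaryocyte markers at a mean of 5 CPM or more, 11 were lower by 0.25 or more and none higher, with summed levels over the list of 2319 and 1268 CPM. In vehicle cells with Tesc, the megakaryocyte marker sum was 4.32 times that in cells without it, the highest of the 5, and HSC markers stood at 0.803 times.

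Of the genes next to the 5 on their chromosomes, none differed as much as its neighbour. Snx14 beside Nt5e gave -0.15, Zdhhc13 and E2f8 beside Csrp3 -0.04 and -0.20, Fbxo21 and Fbxw8 beside Tesc 0.21 and -0.10, and Ppp1r9b beside Samd14 -0.18. Pdk2, whose annotated end lies 171 bp from that of Samd14 on the opposite strand, was at 1.11 and 0.728 CPM. Tdrd7 beside Ccdc180 went from 5.72 to 4.11 CPM (-0.40). Tbx18 and Stra6l were not analysed here.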

How the data were processed

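Per the labels' protocols, 20000 live cells per group entered 10x Genomics Chromium 3′ v3 library preparation and were sequenced on a BGISEQ-500 with 2 lanes per sample. The submitters' processing notes name mm10, FastQC 0.11.9, Trim Galore 0.6.5 and Cell Ranger 3.0.2; the labels do not state the cell filter. The deposited values are natural log values, read from the tables as the log of 1 plus a cell's molecules scaled to 27408. All back-transformed to whole molecules within 0.05. The genes and lists were chosen with earlier results of these data known. Molecules were summed, scaled to CPM and compared with a pseudocount of 1 CPM. The text names the 5 genes, the 8 most and 3 least similar genes of each, the 12 lowest differences, the 2 highest and 2 lowest genes and set relatives of each pathway list, chosen markers, and chromosomal neighbours. Clustering used Leiden at resolution 0.5 on 30 components and 15 neighbours; a cluster was named with 3 or more markers of a type among its top 10 genes by fold. Difference and similarity steps were tested on simulated data. Software was Python 3.11.15, scanpy 1.11.5, leidenalg 0.10.2, scipy 1.17.1 and numpy 2.4.6. Some genes and agents are not reported here.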

Additional observations from a re-analysis of the deposited data

How the results depend on the processing

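No paired analysis was possible because each group is 1 library. Over the 10 alternatives tried for each gene, all 5 differences over all cells stayed negative. With a pseudocount of 10 CPM they were -0.54 for Nt5e, -0.51 for Csrp3, -0.60 for Tesc, -0.53 for Samd14 and -0.55 for Ccdc180, and with 0.1 CPM they were -1.33, -1.29, -1.04, -0.97 and -1.19 in that order. With equal cluster shares they were -0.77, -0.70, -0.49, -0.46 and -0.69, and 3 of the 5 reached -0.5. With each cell weighing the same, Nt5e gave -1.05, Samd14 -0.82 and Ccdc180 -0.96. Thinned cells gave -1.05 for Nt5e, -1.25 for Csrp3 and -0.91 for Ccdc180. Male cells gave -1.24 for Csrp3 and -0.83 for Samd14, and female cells -0.98 for Samd14. Scaling by the median of ratios made each value lower by 0.01 or 0.02.

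The megakaryocyte-like class was wider at resolution 0.25, where the difference was -0.89 for Csrp3, -0.65 for Tesc, -0.62 for Samd14 and -0.87 for Ccdc180. Without genes that differ between the libraries, it was -1.05 for Nt5e, -0.96 for Csrp3, -0.74 for Tesc, -0.69 for Samd14 and -0.92 for Ccdc180. Levels in these wider classes were lower in both libraries; the cause of the larger differences was not tested. Ordering cells by the marker sum without Pf4, chosen after seeing the data, turned the top-decile difference of Tesc to -0.01 and moved that of Csrp3 to -0.52. In the ninth decile it turned Tesc from 0.13 to -0.48 and Samd14 from 0.09 to -0.23. Without thinning, the shares of cells were 15.7% and 7.96% for Nt5e, 11.3% and 5.93% for Csrp3, 17.5% and 9.88% for Tesc, 20.4% and 12.7% for Samd14, and 17.8% and 10.5% for Ccdc180. Ranking similar genes by the fold between cells with and without the gene kept 4 of the 8 for Csrp3, 5 for Tesc and 5 for Ccdc180. Depth limits every level near 1 CPM.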

Other observations

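Mt1 and Mt2, which encode metallothioneins, proteins that bind zinc and copper, were on the list of 33 genes enriched in the megakaryocyte-like cluster. Mt1 was at 306 CPM with vehicle and 195 CPM with DFO, a log2 difference of -0.65, and Mt2 at 13.1 and 6.99 CPM, a difference of -0.82. Within the cluster the differences were -0.42 and -0.49, close to those of Tesc and Samd14. Of the 33, Serpine2, which encodes a serine protease inhibitor, and Egr1, an immediate early gene, were higher with DFO within the cluster, by 0.13 and 0.19. These genes were picked after their values had been seen, and no test was possible with 1 library per group.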
